A study of Mus musculus with 12 samples.

Results

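The expression of 10 Sox genes of neural lineages was followed in astrocytes sorted from the postnatal mouse cerebellum. The genes were Sox1, Sox2 and Sox3 of the SoxB subfamily, Sox4 and Sox11 of SoxC, Sox5 and Sox6 of SoxD, and Sox8, Sox9 and Sox10 of SoxE. Their rows were picked by symbol, from a list set with earlier results of these data known. Of these, 10 of 10 were found among the 24421 genes of the deposited table. RNA had been sequenced from GFP-positive cells of Aldh1l1-GFP mice, in which the promoter of Aldh1l1, an enzyme gene used as a brain-wide astrocyte marker, drives green fluorescent protein (GFP). The groups were the P1, P7, P14 and P28 time points (postnatal days 1, 7, 14 and 28), with 3 libraries each and 12 in all. Every group carried the same transgene, no treatment is given in the labels, and mice of both sexes were used per the study's methods. The labels do not say whether the 3 libraries of a time point came from separate animals or litters, so p-values measure the spread between these libraries, which may be technical. The P1 libraries held 11478899 to 14733985 reads on genes each, those of P7 6399499 to 11328604, those of P14 9470510 to 9856910 and those of P28 7965152 to 10269334. Levels are normalized counts, in which the count of a gene was divided by one size factor per library, and changes are log2 fold changes of the normalized count + 1.

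Sox proteins bind the minor groove of DNA through a shared domain, the HMG box, and act with partner transcription factors. SoxB1 proteins (Sox1, Sox2 and Sox3) maintain neural progenitors, SoxC proteins drive the genes of newborn neurons, SoxD proteins lack an activation domain of their own and modulate other Sox proteins, and SoxE proteins act in glia. Among the SoxE proteins, Sox9 is needed for the onset of gliogenesis and is kept in astrocytes, Sox10 is kept in oligodendrocytes and drives myelin genes, and Sox8 overlaps with both. In the cerebellum, Sox1, Sox2 and Sox9 are known from Bergmann glia, the radial astrocytes of the Purkinje cell layer.

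The coding sequences of these genes are alike in the HMG box, which matters for short reads. The 75-base stretch of coding sequence with the highest total identity to Sox2 lies in the HMG box, and it is shown for the 10 genes because it displays the subfamilies side by side. Sequences are from GENCODE M21 transcripts, 5′ to 3′ on the coding strand, and capitals mark the bases that differ from Sox2.
Sox2: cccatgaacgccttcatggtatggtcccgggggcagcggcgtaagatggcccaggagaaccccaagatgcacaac
Sox1: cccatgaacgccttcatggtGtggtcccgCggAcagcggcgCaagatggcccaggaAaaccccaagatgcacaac
Sox3: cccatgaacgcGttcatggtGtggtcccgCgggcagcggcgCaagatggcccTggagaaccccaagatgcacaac
Sox4: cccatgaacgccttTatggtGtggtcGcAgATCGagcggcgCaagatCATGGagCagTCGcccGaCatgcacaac
Sox11: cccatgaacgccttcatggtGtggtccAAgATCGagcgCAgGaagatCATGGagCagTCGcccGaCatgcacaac
Sox5: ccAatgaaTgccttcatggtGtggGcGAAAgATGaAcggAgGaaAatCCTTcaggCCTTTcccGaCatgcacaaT
Sox6: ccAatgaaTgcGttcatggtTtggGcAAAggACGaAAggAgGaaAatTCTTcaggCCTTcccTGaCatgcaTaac
Sox8: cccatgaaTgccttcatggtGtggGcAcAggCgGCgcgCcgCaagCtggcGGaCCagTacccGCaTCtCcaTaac
Sox9: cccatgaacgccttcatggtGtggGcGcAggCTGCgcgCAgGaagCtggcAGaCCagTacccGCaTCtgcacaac
Sox10: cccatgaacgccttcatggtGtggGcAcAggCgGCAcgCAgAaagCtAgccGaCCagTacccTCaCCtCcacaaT

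Sox1 and Sox3 each differed from Sox2 at 5 of the 75 bases, the SoxC genes at 20 and 21, the SoxE genes at 21 to 23, and the SoxD genes at 27 and 28. Identity over the stretch was 85.33% to 94.67% in the 8 pairs of a subfamily and 58.67% to 74.67% in the 37 pairs across subfamilies. The longest exact run shared by any pair over whole transcripts was 48 bases, between Sox4 and Sox11, followed by 45 between Sox1 and Sox3 and 44 between Sox9 and Sox10. No pair shared a run as long as a read of 75 bases. Which read length applies to these libraries is not clear from the study's methods.

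The genes lie on separate chromosomes of GRCm38, the mm10 build. The SoxB and SoxC genes have a single exon: Sox1 at chr8:12395295-12400126 and Sox2 at chr3:34650405-34652461 on the + strand, and Sox3 at chrX:60891366-60893430, Sox4 at chr13:28948919-28953713 and Sox11 at chr12:27334264-27342574 on the - strand. The longest coding transcripts of the SoxD genes have 15 exons for Sox5, at chr6:143828425-144781977, and 16 for Sox6, at chr7:115470872-116038796, both on the - strand. Sox8 has 3 exons at chr17:25565892-25570686 on the - strand, Sox9 has 3 at chr11:112782224-112787760 on the + strand, and Sox10 has 5 at chr15:79154908-79165240 on the - strand. Sox4 shares 2616 exon bases, 54.56% of its own, with the lincRNA Gm26735 of the opposite strand, and Sox8 shares 329, or 10.55%, with the antisense RNA 2810468N07Rik. Since the use of strand in counting is not stated, reads of these overlaps cannot be assigned to one gene. Sox2 lies inside the noncoding gene Sox2ot on the same strand, and Sox1 likewise inside Sox1ot, which was not in the deposited table.

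The labelled cell type was checked against marker lists. The 11 astrocyte markers were read in every group, and their summed level was 58652 to 77096 normalized counts at P1, 29214 to 54874 at P7, 175361 to 214211 in the P14 libraries and 400417 to 469786 at P28, with the glutamate transporter gene Slc1a3 as the most abundant over the 12 libraries, although the water channel gene Aqp4 was above it in every P7 library. The most abundant gene named for each list below is that with the highest mean over the 12 libraries, and other genes of a list can lead at single time points. Aldh1l1 itself ranged from 3841 to 6441 at P1, 936 to 1985 at P7, 1824 to 1978 in the P14 libraries and 2451 to 3338 at P28. The 12 oligodendrocyte markers summed to 360852, 390690 and 406111 in the P14 libraries, above the astrocyte sums of 197069, 214211 and 175361 in the same libraries. The P14 libraries thus held RNA of a lineage other than the labelled one. The 5 choroid plexus markers summed to 301 to 778 at P1 and to 60969, 127864 and 48117 in the P7 libraries. These P7 sums were above the astrocyte sums of P7 replicates 1 and 2 (54874 and 29214) and below that of replicate 3 (51519.5). P7 libraries thus also held RNA from outside the labelled lineage. Marker sums do not give its share of all RNA, at P7 or at P14. The choroid plexus markers also summed to 109406, 63609 and 912 in the P14 libraries and to 104672, 182787 and 17802 at P28. Sox2, Sox6, Sox8 and Sox9 fell from P1 to P7, and the part of choroid plexus RNA in those falls, or in later changes, was not tested. In bulk RNA, fewer cells of a type and less RNA per cell cannot be told apart, and this holds for every change below.

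Some libraries stood apart from others of their time point. P7 replicate 2 was the shallowest, with 6399499 reads, and had the highest summed level of the 6 endothelial markers, 9909 against 1632 to 2507 in the other P7 libraries, with Flt1 the most abundant over the 12 libraries and Kdr at P7. P1 replicate 2 also had a higher endothelial sum, 3534 against 762 and 1067 in the other P1 libraries, and the lowest Sox1, Sox11 and summed proliferation markers of P1. The 5 choroid plexus markers (most abundant Ttr) summed to 912 in P14 replicate 3 against 63609 and 109406 in the other P14 libraries, and to 17802 in P28 replicate 3 against 104672 and 182787. P28 replicate 1 held 514 normalized counts of Sox10, against 164 and 168 in the other P28 libraries. Of the endothelial markers only 1 was called in a consecutive step, lower from P14 to P28 (Kdr, -2.04, lost without any one of the P14 libraries or P28 replicates 2 or 3, adjusted p 0.0583 to 0.106, in a range of 0.00559 to 0.106), and of the choroid plexus markers 3 rose from P1 to P7. Among the remaining lists, the 7 microglia markers summed to 504 to 3012 over the 12 libraries (most abundant Csf1r), the 5 ependymal markers to 300 to 1570 (Foxj1) and the 5 Purkinje cell markers to 214 to 684 (Car8), with Skor2 of the Purkinje list at 0 in every P14 and P28 library. In these lists 1 microglia marker rose in each of the first 2 steps (P2ry12), 1 ependymal marker fell (Foxj1) and then 1 rose (Rarres2, 2.20), and 1 Purkinje cell marker fell (Car8, -1.42) and then 1 rose (Pcp2, 3.66). The Foxj1 call was lost in 12 of 22 alternatives, among them without any one of the P1 or P7 libraries, P14 replicate 2 or P28 replicate 1 (adjusted p 0.0517 to 0.214, in a range of 0.00227 to 0.214), and the Car8 call without P1 replicates 2 or 3 or P7 replicates 1 or 3 (0.0719 to 0.112, in a range of 0.00042 to 0.112).

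**Figure D1:**
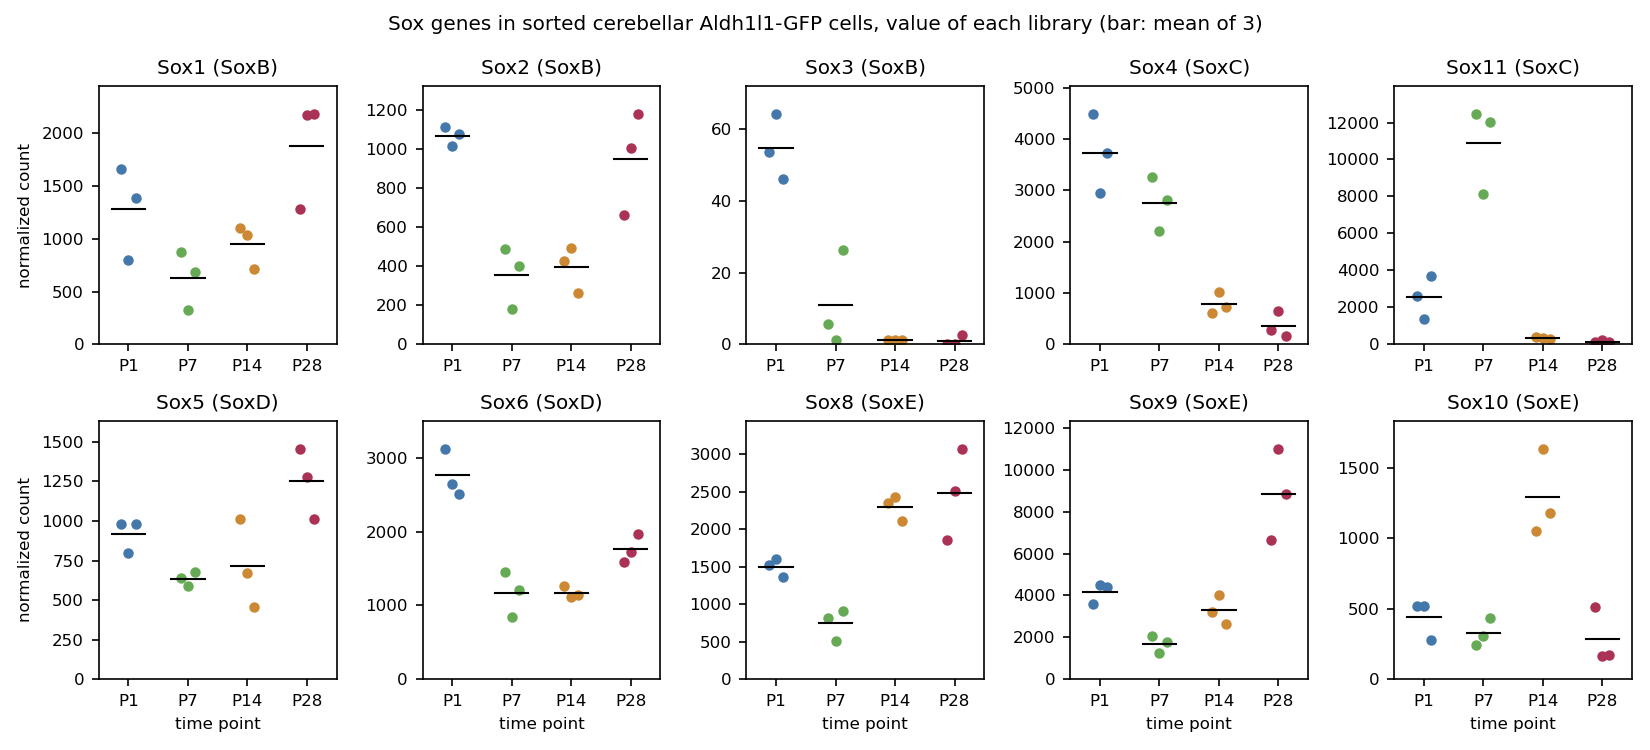
Normalized count of each Sox gene in every library (y axis, linear, starting at 0) by time point (x axis), with points for libraries and a bar for the mean of 3. Sox11 peaks at P7 with 8106 to 12478, Sox10 at P14 with 1053 to 1635, and Sox9 is highest at P28 with 6629 to 11023.

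Across the 4 time points, the 10 Sox genes did not follow one course. The mean was highest at P1 for Sox2, Sox3, Sox4 and Sox6 (as for 22.6% of all genes tested), at P7 for Sox11 (26.5%), at P14 for Sox10 (19.8%), and at P28 for Sox1, Sox5, Sox8 and Sox9 (31.1%). It was lowest at P7 for 6 genes (Sox1, Sox2, Sox5, Sox6, Sox8 and Sox9) and at P28 for the other 4, while 23.7% of all genes tested were lowest at P7, 34.3% at P28, 21.3% at P1 and 20.7% at P14. In the F test of limma over the 4 time points, 10 of 10 members passed an adjusted p of 0.05, as did 43.8% of the 15464 genes tested, and 9 of 9 passed without Sox3, which entered the test through P1 alone. By the size of F, Sox11 ranked 51st, Sox4 559th, Sox9 580th and Sox8 1065th of those genes.

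From P1 to P7, Sox2, Sox6, Sox8 and Sox9 fell and Sox11 rose. These 5 of 10 calls stand beside 7.70% of all genes called in this step, 3.47% higher and 4.24% lower. The median log2 fold change of the 10 genes was -1.05, against 0.037 over all genes tested. From P7 to P14, Sox8, Sox9 and Sox10 rose and Sox4 and Sox11 fell, 5 of 10 beside 20.9% of all genes (10.8% higher, 10.0% lower), with a median of 0.15 against -0.086. From P14 to P28, Sox2, Sox5 and Sox9 rose and Sox4, Sox10 and Sox11 fell, 6 of 10 beside 14.4% (5.68% higher, 8.76% lower), with a median of 0.33 against -0.12. In the fit of these 2 time points alone, only Sox9 and Sox10 passed in the last step, beside 4.95% of all genes, and the count was 3 without P14 replicate 1 (9.21%) or P14 replicate 3 (8.03%). Between P1 and P28, Sox8 and Sox9 were higher and Sox3, Sox4, Sox6 and Sox11 lower at P28, 6 of 10 beside 34.6% of all genes (14.6% higher, 20.0% lower). Sox3 had few reads outside P1 and entered the test through P1 alone, so it had to differ from P1, and its counts in the F test and in comparisons with P1, and medians that include it, are descriptions. Without it, 5 of the other 9 genes were called between P1 and P28. Called instead by a change of over 0.75 on the log2 scale with p under 0.05 before adjustment, 7 genes passed from P1 to P7 (14.2% of all genes), with Sox1 and Sox3 added, 5 in the second step (26.2%), 7 in the last (24.1%), with Sox1 added, and 4 between P1 and P28 (39.3%), without Sox6 and Sox8. Between P7 and P28, 6 were higher and 2 lower, beside 39.2% of all genes (16.2% higher, 23.0% lower). The 3 consecutive steps share libraries, so the values of one step are not independent of those of the next.

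**Figure D2:**
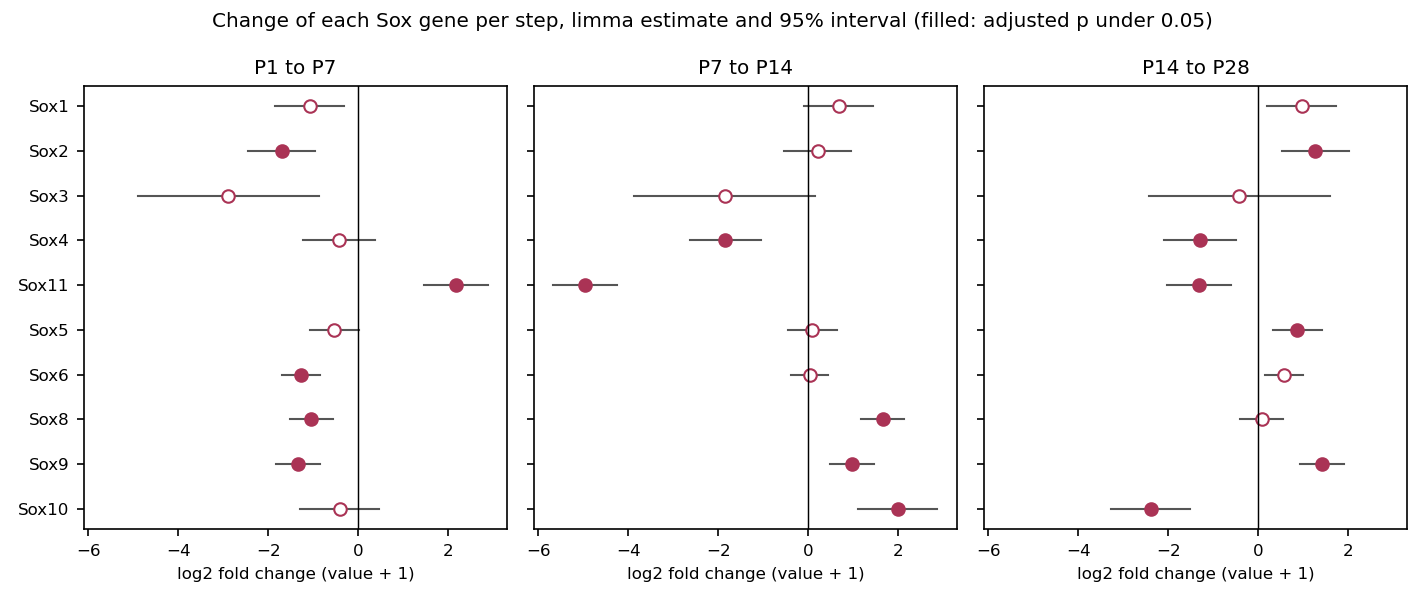
Log2 fold change of each Sox gene in the 3 consecutive steps (x axis, on the scale of normalized count + 1) with its 95% interval from limma, filled where the adjusted p was under 0.05. Sox11 moved up by 2.17 and down by 4.95 in the first 2 steps, and the SoxE genes Sox8, Sox9 and Sox10 lie right of 0 from P7 to P14.

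Sox2, which maintains neural stem cells, fell after P1, and its P28 libraries overlapped those of P1 again. Its normalized counts were 1111, 1016 and 1079 in the P1 libraries, 487, 182 and 401 at P7, 429, 491 and 264 at P14, and 663, 1005 and 1182 at P28. The P7 and P14 libraries also overlapped each other, and all of them were below every P1 and P28 library. The fall from P1 to P7 was 3.24-fold (log2 fold change -1.70 ± 0.35 SE, adjusted p 0.00709), and the change from P7 to P14 was 0.21 ± 0.35 (adjusted p 0.734). From P14 to P28 Sox2 rose 2.42-fold (1.27 ± 0.35, adjusted p 0.0253), but this call was lost without P14 replicate 1, P14 replicate 3, P28 replicate 2 or P28 replicate 3 (adjusted p 0.0517 to 0.111) and in the fit of these time points alone (0.0738), in a range of 0.00517 to 0.111 over the alternatives. Between P1 and P28 the difference was -0.21, with a 95% interval of -0.95 to 0.53.

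Sox1, a close relative of Sox2, passed in no consecutive step. It measured 1663, 798 and 1386 in the P1 libraries, 879.8, 327 and 688 at P7, 1107, 1039 and 715 at P14, and 1287, 2179.7 and 2188 at P28. Only the P14 and P28 libraries of consecutive time points were separate. The 3 consecutive changes were -1.07 ± 0.36, 0.68 ± 0.36 and 0.97 ± 0.36, with adjusted p of 0.0930, 0.212 and 0.0867. The last of these passed without P7 replicate 2 (adjusted p 0.0448) or P28 replicate 1 (0.0457), in a range of 0.0448 to 0.26 over the alternatives, and the first and last changes passed the call made on size and p before adjustment. Over the longer span from P7 to P28, Sox1 rose 3.14-fold (1.65 ± 0.36, adjusted p 0.00239).

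Sox3, a SoxB1 gene of early progenitors, was scarce at P1 and at the limit of detection from P14. The P1 libraries held 87, 90 and 61 reads, the P7 libraries 7, 1 and 34, the P14 libraries 1 each, and the P28 libraries 0, 0 and 2. In normalized counts this was 53.5, 64.3 and 46.2 at P1, 5.57, 1.31 and 26.4 at P7, 1.06 to 1.09 at P14, and 0, 0 and 2.70 at P28. Every P1 library was above every later one, and Sox3 passed the filter on low values through P1 alone. The pooled level was 4.32-fold lower at P7 than at P1 (95% counting interval 3.10 to 6.14), and 13.8-fold lower (6.905 to 32.4) without P7 replicate 3, the library that held 34 of the 42 P7 reads. At P28, where 2 reads were left, it was 62.2-fold lower than at P1 (17.0 to 517). These intervals cover counting error only. The step from P1 to P7 did not pass the test (adjusted p 0.0836), although it did without P7 replicate 3 (0.0372), with only these time points (0.0353) or with a pseudocount of 10 (0.0142), in a range of 0.0142 to 0.37 over 21 alternatives.

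Sox11, a SoxC factor of newborn neurons, had the largest change of the 10 genes in any consecutive step, its fall from P7 to P14. Its normalized counts were 2601, 1386 and 3692 in the P1 libraries, 12478, 8106 and 12051 at P7, 416, 331 and 296 at P14, and 99.4, 204 and 131 at P28. The libraries of the 4 time points did not overlap. Sox11 rose 4.51-fold from P1 to P7 (2.17 ± 0.33, adjusted p 0.00113), fell 30.9-fold from P7 to P14 (-4.95 ± 0.33, adjusted p 4.17e-07) and fell 2.47-fold more to P28 (-1.31 ± 0.33, adjusted p 0.0187). The last call was lost without P14 replicate 1 (adjusted p 0.0729) or P28 replicate 1 (0.0532) and with only these time points (0.115), in a range of 0.00567 to 0.115.

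Sox4, the other SoxC factor among the 10 genes, did not share the peak of Sox11 at P7. It stood at 4497, 2947 and 3723 in the P1 libraries, 3271, 2201 and 2822 at P7, 604, 1014 and 721 at P14, and 284, 642 and 166 at P28. The P1 and P7 libraries overlapped, all of them were above the later ones, and the highest P28 library lay inside the P14 range. From P1 to P7 the change was -0.43 ± 0.37 (adjusted p 0.643, 95% interval -1.22 to 0.37), and from P7 to P14 Sox4 fell 3.58-fold (-1.84 ± 0.37, adjusted p 0.0026). The fall from P14 to P28 was 2.44-fold (-1.29 ± 0.37, adjusted p 0.0329). It was lost without any one of the P14 libraries or P28 replicates 1 or 3 (adjusted p 0.0505 to 0.122), with edgeR (0.068) and with only these time points (0.188), in a range of 0.00188 to 0.188.

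The summed markers of immature neurons, of the GABAergic lineage and of dividing cells were highest in the P7 libraries, as was Sox11, while Sox4 was not. The 8 immature neuron markers (most abundant Dcx, with Elavl3 above it at P14 and P28) summed to 3592, 2862 and 8071 normalized counts in the P1 libraries, 18982 to 20694 in P7 replicates 1 and 3 and 16347 in P7 replicate 2, 6025 to 8215 at P14 and 2204 to 2434 at P28, and 6 of 8 rose from P1 to P7, 5 fell at P14 and 7 fell at P28. Within P1, Sox11 and this sum were both lowest in replicate 2 and highest in replicate 3, but within P14 Sox11 was highest in replicate 1 and lowest in replicate 3 and the sum the reverse. Among the immature neuron calls, the rise of Nhlh1 (3.49, adjusted p 0.0392) was lost in 9 of 21 alternatives, in a range of 0.00415 to 0.187. Its fall at P28 (-4.61, adjusted p 0.00695) was lost in 2, in a range of 1.35e-05 to 0.0736. The 9 GABAergic lineage markers summed to 1095 to 3873 at P1, 4407 to 8882 at P7, 446 to 686 in the P14 libraries and 407 to 1137 at P28, with 2 higher at P7, 8 lower at P14, Ptf1a and Neurog1 at 0 in every P14 library and Neurog1 at 0 in every P28 library. The 10 proliferation markers (Mki67, with Pcna above it at P14 and P28) summed to 10229 to 17328 at P1, 22577 to 28519 at P7, 1399 to 2045 in the P14 libraries and 588 to 938 at P28, with 1 higher at P7 (Top2a, 0.99, lost without P1 replicates 1 or 2 or any one of the P7 libraries, adjusted p 0.0795 to 0.168, in a range of 0.00226 to 0.168), 10 of 10 lower at P14 and 8 lower again at P28. Of the proliferation markers, Cdk1 fell at P28 by 2.46 on the log2 scale (adjusted p 0.0372), a call lost in 11 of 21 alternatives. Its change ranged from -5.74 to -0.63 and its adjusted p from 0.00362 to 0.344. The 10 granule neuron lineage markers (Cbln3, which led at P14 and P28 only) had another course, with sums of 1418 to 2293, 6961 to 9838, 12989 to 24134 and 8526 to 9989.6 in the order of age, although Atoh1, the gene of their progenitors, was at 0 in every P14 and P28 library. The part of these lineages in the Sox4 and Sox11 values was not tested.

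Of the SoxD genes, Sox6 fell from P1 to P7, and Sox5 had the smallest F of the 10 genes (rank 5304). Sox6, a partner of SoxE proteins, measured 3128, 2645 and 2518 in the P1 libraries, 1456, 845 and 1210.0 at P7, 1259, 1115 and 1144 at P14, and 1584, 1719.7 and 1972 at P28. Each P1 library was above all later ones, and each P28 library was above the P7 and P14 libraries. The fall from P1 to P7 was 2.41-fold (-1.27 ± 0.19, adjusted p 0.00114), the later steps were 0.036 ± 0.19 (adjusted p 0.928) and 0.58 ± 0.19 (adjusted p 0.0602), and the level at P28 was 1.57-fold below that at P1 (-0.65 ± 0.19, adjusted p 0.0184). Without P7 replicate 2 the last step passed (adjusted p 0.0326), and with DESeq2 also (0.0416), in a range of 0.0326 to 0.222, while the net difference was lost without P1 replicate 1 (0.0816) or P28 replicate 1 (0.0510), in a range of 0.000394 to 0.0816, and was under a log2 fold change of 0.75.

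Sox5, which can pair with Sox6, measured 980.1, 797 and 984 at P1, 640.2, 586 and 679.8 at P7, 1011, 672 and 456 at P14, and 1458, 1277 and 1014 at P28. The P14 libraries spread from below the P7 range to above the P1 range. The steps were -0.53 ± 0.25 (adjusted p 0.278), 0.093 ± 0.25 (adjusted p 0.853) and 0.87 ± 0.25 (adjusted p 0.0352), of which only the last passed, although the first did in the fit of its time points alone (adjusted p 0.0414, in a range of 0.0414 to 0.555). The last call was lost in 9 of 22 alternatives, among them without P7 replicates 1 or 3, P14 replicates 2 or 3 or P28 replicates 1 or 2 (adjusted p 0.0506 to 0.143), with library totals alone (0.117), with edgeR (0.0576) and with only these time points (0.165), in a range of 0.0128 to 0.165.

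Sox9, which starts gliogenesis and stays on in astrocytes, was the most abundant of the 10 genes at P28. Its normalized counts were 3610.1, 4476 and 4385 in the P1 libraries, 2039, 1225 and 1778 at P7, 3210.0, 4007 and 2630.2 at P14, and 6629, 11023 and 8846 at P28. P7 lay below and P28 above every other library, and P1 overlapped P14. Sox9 fell 2.52-fold from P1 to P7 (-1.33 ± 0.23, adjusted p 0.00224), rose 1.97-fold to P14 (0.98 ± 0.23, adjusted p 0.00645) and rose 2.67-fold to P28 (1.42 ± 0.23, adjusted p 0.00157). These 3 calls held in the 22 alternatives run on each, with a highest adjusted p of 0.0404. The level at P28 was 2.09-fold that at P1 (1.06 ± 0.23, adjusted p 0.00235).

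Astrocyte markers changed in the same steps as Sox9. Of the 11 markers, 6 fell and 2 rose from P1 to P7, 9 rose from P7 to P14, and 8 rose from P14 to P28. Of the 6 falls, that of Slc1a2 (-0.75, adjusted p 0.0422) was lost in 13 of 22 alternatives, in a range of 0.0311 to 0.16. From P7 to P14 the median log2 fold change of the 11 markers was 2.45 and that of Sox9 0.98. The glucose enzyme gene Aldoc followed the course of Sox9, with -2.29, 3.38 and 1.47 in the 3 steps, and the calcium-binding protein gene S100b rose in each, by 1.39, 3.07 and 1.60. The 4 Bergmann glia markers (most abundant Tnc, with Gdf10 above it at P14 and P28) summed to 35810 to 46276 at P1, 9563 to 17584 at P7, 15574 to 25684 in the P14 libraries and 27441 to 37947 at P28. Of the 4, 2 fell from P1 to P7, 2 rose and 1 fell from P7 to P14, and 2 rose from P14 to P28. Gdf10 rose at P14 (3.04 ± 0.46) and Hopx at P14 and P28, while Fabp7 and Tnc, which radial glia also express, fell at P7. Fabp7 fell again at P14 (-1.15) and rose at P28 (1.05, adjusted p 0.0174). That rise was lost without P14 replicate 3 (adjusted p 0.0857) or P28 replicate 3 (0.05001), in a range of 0.00401 to 0.0857. The part of cell composition in the Sox9 values was not tested.

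Sox8, the SoxE gene that overlaps in function with both others, fell and rose with Sox9 up to P14. It measured 1518, 1600.4 and 1361 in the P1 libraries, 816, 514 and 912 at P7, 2353, 2423 and 2105 at P14, and 1850.1, 2506 and 3075 at P28. All P7 libraries were below those of P1, all P14 and P28 libraries were above them, and P14 and P28 overlapped. The fall to P7 was 2.05-fold (-1.04 ± 0.22, adjusted p 0.0104) and the rise to P14 3.15-fold (1.66 ± 0.22, adjusted p 0.000116), and from P14 to P28 the change was 0.083 ± 0.22 (adjusted p 0.842, 95% interval -0.40 to 0.56). The fall was lost without P7 replicate 2 (adjusted p 0.0504), in a range of 0.00174 to 0.0504, and the rise held in the 22 alternatives run. The difference from P1 to P28 (0.70 ± 0.22, adjusted p 0.0258) was lost without P1 replicates 1 or 3 or P28 replicates 2 or 3 (adjusted p 0.0539 to 0.0916) and with library totals alone (0.317), and was under the log2 fold change of 0.75 that the call on size and p before adjustment asks for, in a range of 0.00835 to 0.317.

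Sox10, which drives the myelin genes of oligodendrocytes, stood out at P14. Its normalized counts were 519.9, 516 and 279 in the P1 libraries, 241, 308 and 430.2 at P7, 1053, 1635 and 1180.5 at P14, and 514, 164 and 168 at P28. The P14 libraries were above all others, and the other 3 time points overlapped. Sox10 rose 3.98-fold from P7 to P14 (1.99 ± 0.41, adjusted p 0.00303) and fell 5.22-fold to P28 (-2.38 ± 0.41, adjusted p 0.00243), and both calls held in the 22 alternatives run on each, with a highest adjusted p of 0.0328. From P1 to P7 the change was -0.41 ± 0.41 (adjusted p 0.711), and between P1 and P28 it was -0.80 ± 0.41 (adjusted p 0.148). Without P28 replicate 1, the P28 library with the most Sox10, the net difference was -1.34 (adjusted p 0.00755), and with library totals alone it was -1.23 (0.0278), in a range of 0.00755 to 0.376.

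Oligodendrocyte markers were high in the same libraries as Sox10, but not in those alone. The 12 markers (most abundant Mbp) summed to 1764 to 2888 at P1, 23596 to 36046 at P7, 360852 to 406111 in the P14 libraries and 107288 to 148395 at P28, with 10 of 12 higher at P7, 12 of 12 higher in the P14 libraries and 10 lower at P28. At P28 their summed level was above that of every P7 library, while Sox10 of P28 overlapped with P7. The 8 oligodendrocyte precursor markers (Gpr17, with Pdgfra above it at P1) summed to 8062 to 12373 at P1, 4299.5 to 4919.8 at P7, 6804 to 8118 in the P14 libraries and 2667 to 3071 at P28, with 3 lower at P7, 2 higher and 1 lower at P14, and 4 lower at P28. Of the P14 calls, that of Gpr17 (higher) was lost without any one of the P7 or P14 libraries (adjusted p 0.0511 to 0.124) and with library totals alone (0.0793), in a range of 0.00159 to 0.124, and that of Pdgfra (lower) without any one of the P7 libraries or P14 replicates 2 or 3 (0.0664 to 0.0973), in a range of 0.00253 to 0.0973. Sox10 is also a gene of Schwann cells, and the 3 Schwann cell markers (Prx) summed to at most 60.2 in any library. The part of the oligodendrocyte lineage in the Sox10 values was not tested.

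**Figure D3:**
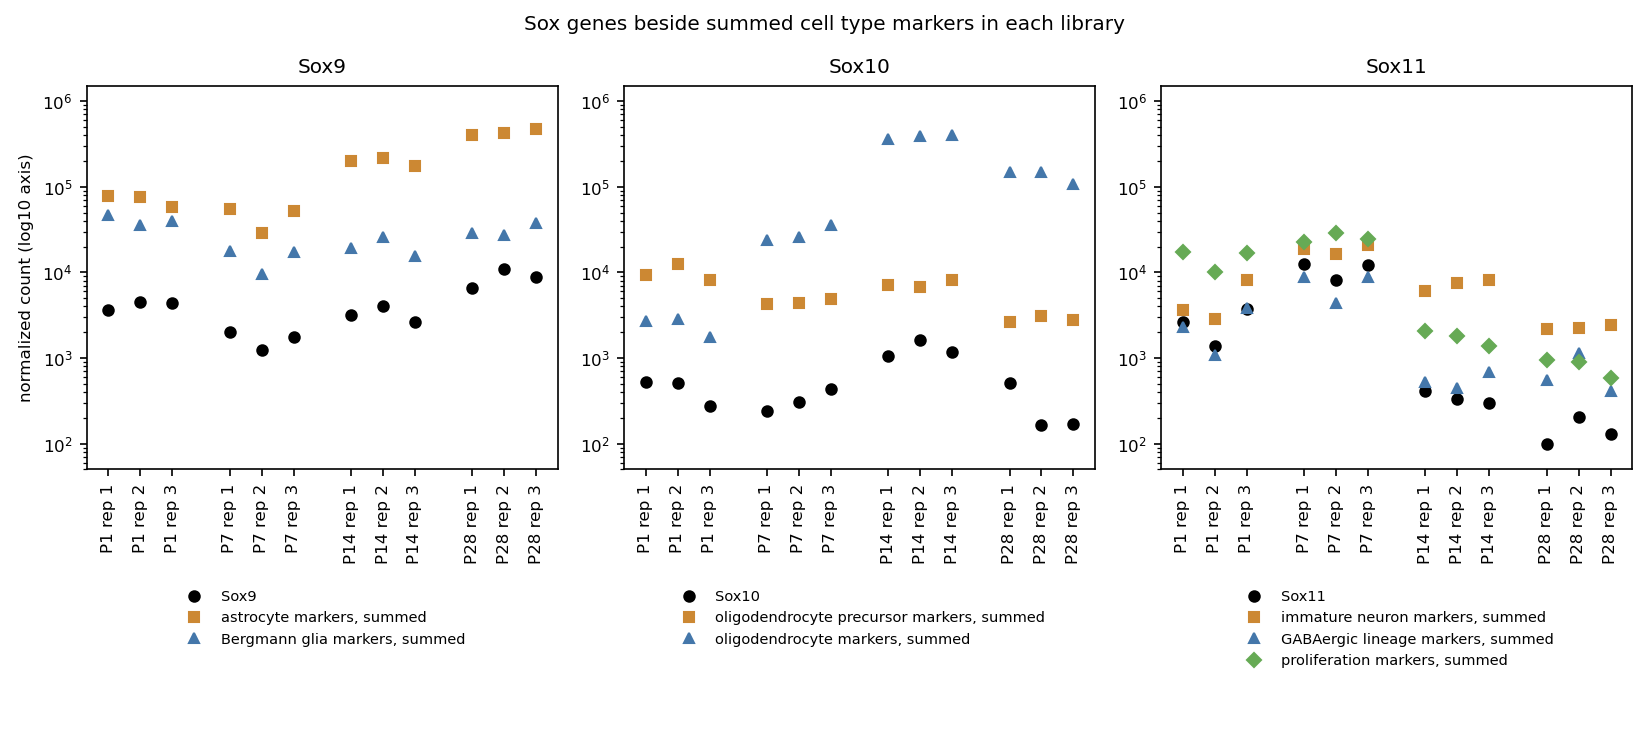
Normalized counts (log10 y axis) of Sox9, Sox10 and Sox11 (black) and summed marker lists (colours) in each of the 12 libraries (x axis). Sox10 and the summed oligodendrocyte markers are both highest in the 3 P14 libraries, and Sox11 and the immature neuron and proliferation sums are highest in the 3 P7 libraries.

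Levels of different genes were compared per kilobase of exon. Sox9 led at P1 with 1005 ± 115 normalized counts per kilobase (SD, n = 3), ahead of Sox4 with 776 ± 162 and Sox2 with 519.5 ± 23.5. At P7 Sox11 led with 1309 ± 290.0, ahead of Sox4 with 577 ± 112 and Sox9 with 406 ± 101. At P14 Sox9 (794 ± 167) and Sox8 (736 ± 53.6) overlapped within their spread and Sox10 followed with 464 ± 110.2. At P28 Sox9 had 2136 ± 531, ahead of Sox8 with 794 ± 197, and made up 49.3% of the summed level of the 10 genes, against 12.8% at P7. Sox3 was the lowest of the 10 genes at each time point.

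Summed by subfamily, SoxC genes held 27.2% ± 4.96 (SD, n = 3) of the per-kilobase level of the 10 genes at P1, 59.7% ± 1.58 at P7, 7.28% ± 0.853 in the P14 libraries and 2.12% ± 1.04 at P28. SoxE genes held 41.8% ± 6.27, 24.2% ± 1.21, 71.0% ± 2.37 and 69.9% ± 0.875 in the same order. SoxB genes were lowest at P7, with 9.40% ± 2.42, and had 20.4% ± 1.43 at P1 and 19.5% ± 2.57 at P28, and SoxD genes stayed between 6.72% and 10.6%. These shares sum to a fixed total, so a high SoxC share lowers the others by construction.

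**Figure D4:**
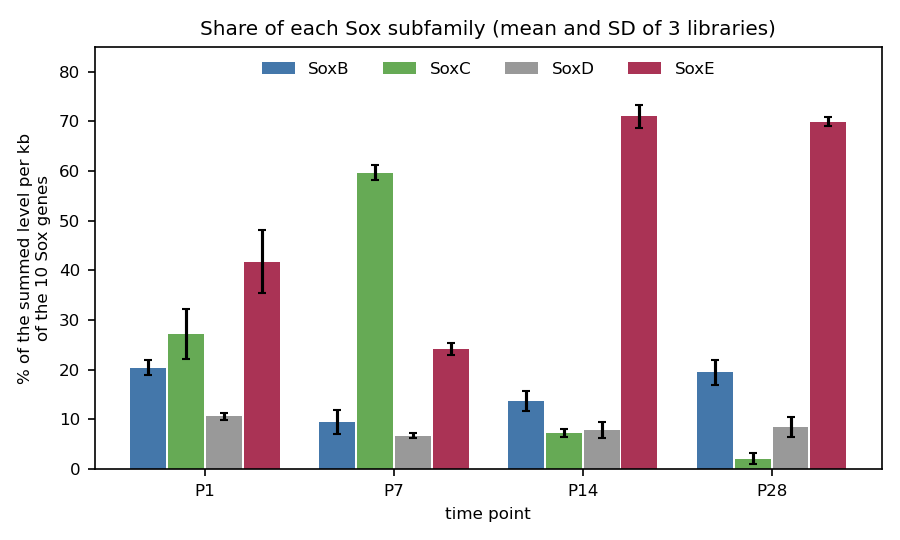
Share of each subfamily in the summed per-kilobase level of the 10 Sox genes (y axis, %, starting at 0) by time point (x axis), as mean of 3 libraries with SD. SoxC is the largest share at P7 with 59.7% and SoxE at P14 and P28 with 71.0% and 69.9%.

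Ratios within a library compare related genes largely without the size factor, which enters only through the 1 added to each value, and 6 of them were tested for a difference between time points with an exact permutation test on log2 ratios (369600 assignments, two-sided, smallest possible p 6.494e-05, Benjamini-Hochberg adjustment over the 6). The ratio of Sox4 to Sox11 was 1.62 ± 0.566 (SD, n = 3) at P1, 0.256 ± 0.0195 at P7, 2.31 ± 0.81 in the P14 libraries and 2.41 ± 1.00 at P28, and every P7 library was below every other one (exact permutation p 0.00909, adjusted p 0.0109). Sox10 to Sox9 was 0.108 ± 0.0408, 0.204 ± 0.0742, 0.395 ± 0.0615 and 0.0373 ± 0.0351 in the order of age (exact permutation p 0.00169, adjusted p 0.00253). Its P14 libraries were the highest, and P28 ranged from 0.0150 to 0.0777, where the library with the most Sox10 was P28 replicate 1. Sox8 to Sox9 likewise peaked at P14, with 0.713 ± 0.0994 against 0.363 ± 0.0553 at P1, 0.445 ± 0.0602 at P7 and 0.285 ± 0.0603 at P28 (exact permutation p 0.000909, adjusted p 0.00182). In both SoxE ratios every P14 library was above every library of the other time points.

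Sox1 to Sox2 was 1.19 ± 0.365 at P1, 1.77 ± 0.0494 at P7, 2.46 ± 0.309 in the P14 libraries and 1.99 ± 0.164 at P28 (exact permutation p 0.00026, adjusted p 0.000974), and each P1 library was below all later ones. Sox3 to Sox2 had a mean of 0.0523 ± 0.0106 at P1 and 0.00188 ± 0.00112 at P28, a description only, since the P14 and P28 values rest on 3 and 2 reads of Sox3 and the added 1 sets the ratio of a library with none. Sox6 to Sox5 was 3.02 ± 0.406 at P1 and 1.46 ± 0.439 at P28, with an exact permutation p of 0.0498 (adjusted p 0.0498) that was lost without any one of the P1 or P7 libraries, P14 replicate 2, P28 replicate 1 or P28 replicate 2 (0.0542 to 0.149), in a range of 0.02305 to 0.149 over the alternatives.

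**Figure D5:**
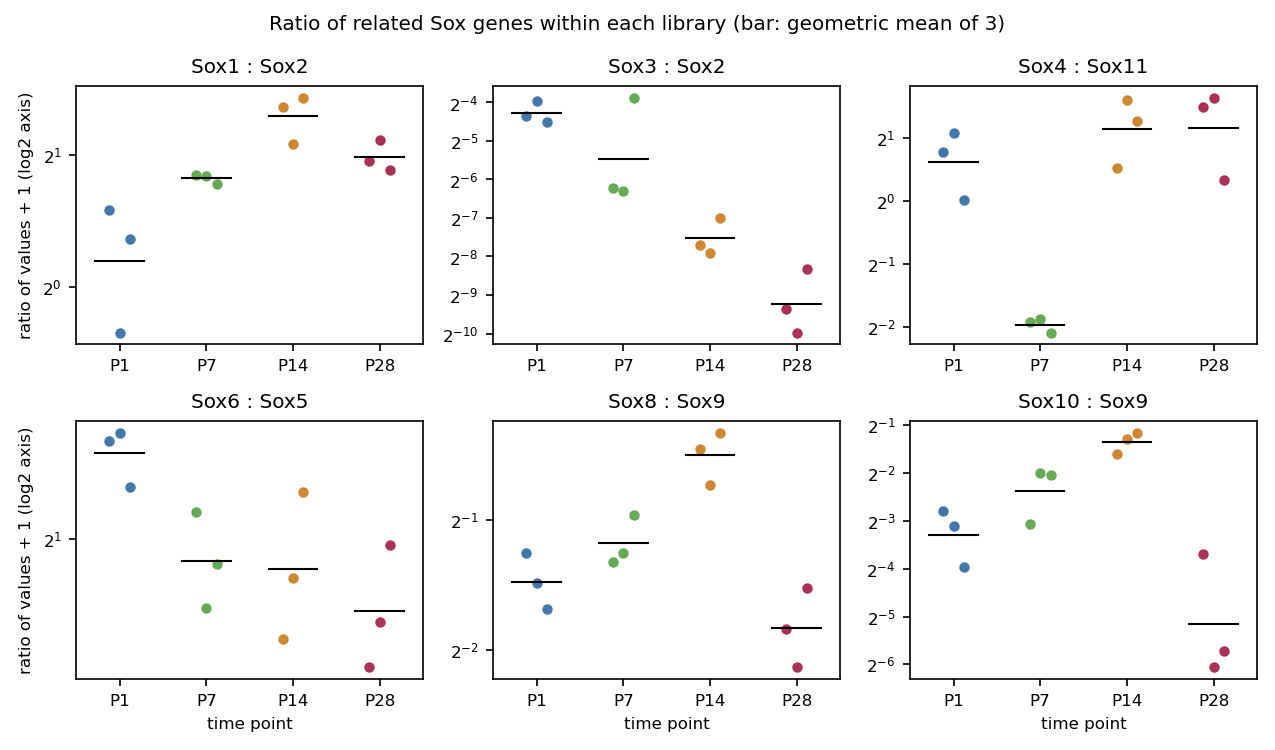
Ratio of related Sox genes within each library (y axis, log2 scale, normalized count + 1 in both terms) by time point (x axis), with a bar at the geometric mean of 3 libraries. The Sox4 to Sox11 ratio is lowest at P7 (mean 0.256), and both SoxE ratios are highest at P14 (means 0.713 and 0.395).

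Partner factors of Sox proteins changed in all steps. Of 12 listed (POU, NFI, Olig and related factors), 5 rose and 1 fell from P1 to P7, 2 rose and 5 fell from P7 to P14, and 3 rose and 2 fell from P14 to P28. The NFI factors act with Sox9 in gliogenesis. Nfib rose from 6935 to 11986 at P1 to 22490 to 27119 at P7 (1.42 ± 0.17) and fell to 5027 to 5333 at P14 (-2.29 ± 0.17), the reverse of Sox9 in both steps, and Nfia (0.61, then -1.27) and Nfix (1.14, then -1.56) moved the same way as Nfib, although the rise of Nfia was lost without P7 replicate 1 (adjusted p 0.0565) or 3 (0.0699), in a range of 0.000668 to 0.0699. From P14 to P28 Nfia rose with Sox9 (0.94 ± 0.13), while Nfib (0.10, adjusted p 0.753) and Nfix (0.63, adjusted p 0.0632) did not pass. Olig1, a partner of Sox10, fell to P7 (-2.46 ± 0.26), rose to P14 (2.27 ± 0.26) and fell to P28 (-2.07 ± 0.26). Myrf, the regulator of myelin genes that works with Sox10, rose in both early steps (2.60 and 2.13) and fell after P14 (-2.19). The POU factor Pou3f2, a partner of Sox2, fell to P14 (-1.37 ± 0.24) and rose to P28 (1.25 ± 0.24).

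Known target genes were followed for each group of Sox factors. Of the 3 SoxB1 targets, Notch1 and Nes fell from P1 to P7, where Sox2 fell too, and the third, Shh, entered the test through P1 alone and had to be lower elsewhere. Notch1, the receptor, fell from 3530 to 6568 normalized counts at P1 to 1165 to 1269 at P7 (-1.95 ± 0.20) and rose again from P14 to P28 (0.80 ± 0.20, lost without P14 replicate 1 or 3, adjusted p 0.0654 and 0.0586, and with library totals alone, 0.0646, in a range of 0.00682 to 0.0654), and the intermediate filament gene Nes fell at P7 (-1.65 ± 0.28) and P14 (-1.12 ± 0.28). The second fall of Nes was lost without P7 replicate 2 (adjusted p 0.0530) or P14 replicate 1 (0.0563), in a range of 0.00281 to 0.0563. Shh was 14.3 to 23.99 at P1 and listed at 0 in every P7 library. Of the 3 SoxC targets, Dcx, a microtubule protein of migrating neurons, rose with Sox11 from 901 to 2784 at P1 to 5986 to 8423 at P7 (2.36 ± 0.53) and fell in the later steps (-3.80 and -3.05). The neuronal tubulin gene Tubb3 changed by 1.19 ± 0.49 at P7 (adjusted p 0.18) and fell in the later steps (-1.99 and -1.58), and Tead2 passed in no consecutive step. Dcx and Tubb3 are also in the immature neuron list, so they are not separate from it. The rise of Dcx was lost without P1 replicate 1, P1 replicate 2 or P7 replicate 3 (adjusted p 0.0565 to 0.0774), and its last fall with only these time points (0.0510). With each library left out in turn, the last change of Dcx ranged from -3.75 to -2.36. The last fall of Tubb3 (adjusted p 0.0434) was lost in 13 of 22 alternatives, among them without P1 replicate 1, any one of the P7 or P14 libraries or P28 replicates 1 or 3 (0.0542 to 0.152), in a range of 0.013 to 0.221.

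The listed targets of Sox9 did not move as a group. Of 5 (Nfia, Apcdd1, Mmd2, Col2a1 and Acan), 1 rose and 1 fell in each consecutive step, and Col2a1 and Acan passed in none. Mmd2, which Sox9 and Nfia induce in early gliogenesis, fell and rose with Sox9 (-1.53 ± 0.30 and 1.24 ± 0.30) up to P14 and changed by 0.37 ± 0.30 (adjusted p 0.441) from P14 to P28, while Nfia went the other way in the first 2 steps, and Apcdd1 fell from P14 to P28 (-1.67 ± 0.42, lost without P14 replicates 2 or 3, adjusted p 0.0509 and 0.0703, and with only these time points, 0.123, in a range of 0.00274 to 0.123). With each library left out in turn, this change of Apcdd1 ranged from -2.19 to -1.05. Targets of Sox10 had one direction within each consecutive step, though not all passed, and they were not tested as a group. From P7 to P28, 3 were higher and 3 lower in direction. Of the 6 tested of 7, 4 rose in the first step, 6 rose in the second and 5 fell in the last. One of these falls, that of the gap junction gene Gjb1 (adjusted p 0.0401), was lost in 12 of 21 alternatives, among them without P1 replicate 1, any one of the P7 or P14 libraries or P28 replicate 3 (0.0525 to 0.12), in a range of 0.00917 to 0.127. Mbp, which encodes a protein of the myelin sheath, rose by 4.21 and 3.64 in the first 2 steps, in which Sox10 changed by -0.41 and 1.99, of which the first did not pass. The neuregulin receptor gene Erbb3 rose to P14 and fell to P28, as did Sox10, with 7.14 to 27.7 at P1, 13.2 to 20.9 at P7, 263 to 306 in the P14 libraries and 3.54 to 36.5 at P28. Mbp also belongs to the oligodendrocyte list.

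Of 12 other Sox genes and Sox noncoding RNAs, 11 were in the table and 8 passed the filter. Sry was at 0 in every library and Sox14 and Sox30 were at 0 in every P14 and P28 library. Sox21, a SoxB2 factor that counteracts SoxB1 proteins, was 1265 to 1352 at P1 and 95.5 to 274 at P7 (-2.94 ± 0.38, adjusted p 0.000316), and rose from P14 to P28 (1.56 ± 0.38, adjusted p 0.0153), the same 2 steps in which Sox2 was called. The rise was lost without P14 replicate 3 (adjusted p 0.0696) and with only these time points (0.075). Sox2ot, the noncoding gene that surrounds Sox2, did not have the course of Sox2. It was 769 to 838 at P1, 448 to 951 at P7, 2369 to 2572 in the P14 libraries and 350.3 to 830.1 at P28, rising at P14 (1.91 ± 0.30, adjusted p 0.000368) and falling at P28 (-2.11 ± 0.30, adjusted p 0.000733), which are the steps and directions of Sox10. The SoxC gene Sox12 fell at P14 with Sox4 and Sox11 (-1.59 ± 0.45, lost without P7 replicates 1 or 3 or P14 replicates 1 or 2, adjusted p 0.066 to 0.0788) but rose at P28 (1.43 ± 0.45, adjusted p 0.0478), where P28 replicate 1 held 1441 against 264 and 513, and 16 of 22 alternatives lost that rise. The SoxD gene Sox13 rose at P14 (1.48 ± 0.48, adjusted p 0.0399), a call that was not followed over the alternatives. The SoxF genes Sox7, Sox17 and Sox18, which are known from endothelium, had their highest P7 values in P7 replicate 2 (298, 116 and 81.1), the library with the most endothelial markers. Sox7, Sox17, Sox18 and Sox15 passed in no consecutive step.

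The genes with the most similar course to 4 of the Sox genes were sought by the root mean square difference of centred log2 values over the 12 libraries, among 10211 genes with a mean of at least 100. Nearest to Sox2 were Ptprz1, a receptor phosphatase of radial glia and astrocytes (0.25), Fjx1 (0.27) and Rfx4, a transcription factor (0.29), against a median of 1.02 over all candidates. Ptprz1 fell at P7 by 1.77 and rose at P28 by 1.25. Nearest to Sox9 were Pmm1 (0.20), Lxn (0.21) and Rftn2 (0.22), against 1.04, of which Lxn changed by -1.38, 0.69 and 1.91 in the 3 steps, the second lost in 7 of 22 alternatives, among them without P7 replicates 2 or 3 or P14 replicates 1 or 2 (adjusted p 0.0743 to 0.182, in a range of 0.022 to 0.182). Nearest to Sox10 were Xrcc3 (0.43), Sox2ot (0.44) and Plekhg3 (0.51), against 1.20, and nearest to Sox11 were Mex3a (0.57), Fam60a (0.65) and Tfap2b, a transcription factor of cerebellar GABAergic neurons (0.65), against 2.51. Tfap2b fell by 5.45 on the log2 scale from P7 to P14. The 12 libraries fall into 4 time points, so a small difference mostly reflects like means at the time points, and the measure is a description.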

How the data were processed

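RNA of GFP-sorted cells was measured by RNA sequencing in 12 libraries, 3 for each time point. The authors aligned reads to mm10 with STAR (version 2.5.0a), counted them over UCSC transcript models with GenomicAlignments and GenomicFeatures, and scaled the result with DESeq2 (version 1.30.1), with FastQC (0.11.7) and MultiQC (1.11) for quality. Versions are from the submitters' processing notes, and the study's methods name other versions of DESeq2, FastQC and MultiQC. The use of strand and the treatment of reads that map to several places are not stated. The deposited values are a signal, each count divided by the size factor of its library, and whole reads were recovered for 100% of values (within 0.001 reads). Columns were matched to time points through the labels, since every column name carries P28, and 0 columns were left over.

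log2(value + 1) was fitted with limma (version 3.58.1, R 4.3.3), one mean per time point, variance trend, all 12 libraries, over 15464 genes that reached 10 normalized counts in 3 or more libraries. A gene was called at a Benjamini-Hochberg adjusted p under 0.05 over all of these. Annotation and exon lengths were from GENCODE M21. Scripts were tested on simulated data. Alternatives used TMM or library totals, edgeR (4.0.16), DESeq2 (1.42.0), other pseudocounts and filters, the replicate number as a block, only the time points compared, the study's threshold, and leaving out each library. Correlations between same-numbered libraries did not settle whether the numbers pair them.

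The members, gene lists and tests were chosen with earlier results of these data known. Genes named beside the members are the other Sox genes, the 2 most abundant genes of each list and its called genes with the largest rise and fall per step, and the 3 nearest in course to Sox2, Sox9, Sox10 and Sox11. Genes outside this rule (among them Aldh1l1, Aqp4, Pcna, Nfix, Tead2, Skor2, Atoh1, Ptf1a and Neurog1) were named after their values were seen. Some results are not reported here.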

Additional observations from a re-analysis of the deposited data

How the results depend on the processing

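Over the 10 Sox genes, 4 comparisons each and the alternatives run, 916 values were recomputed, of which 857 kept their direction and their side of the threshold, 34 lost the call, 14 gained it and 11 changed sign. The calls that held in all 22 fits with the same threshold were those of Sox2, Sox6, Sox9 and Sox11 from P1 to P7, of Sox4, Sox8, Sox9, Sox10 and Sox11 from P7 to P14, of Sox9 and Sox10 from P14 to P28, and of Sox4, Sox9 and Sox11 between P1 and P28. Asking for at least 10 reads in every library removed Sox3. The changes of sign were all in uncalled or small changes. With library totals alone, Sox2 (-0.042), Sox5 (-0.16) and Sox6 (-0.22) from P7 to P14, Sox8 from P14 to P28 (-0.15) and Sox5 between P1 and P28 (-0.0032) turned, a scaling that moved the median of all genes from -0.086 to -0.34 in the second step, from -0.12 to -0.35 in the last and from -0.24 to -0.66 between P1 and P28. Without P7 replicate 2, Sox2 (-0.21) and Sox6 (-0.18) turned from P7 to P14, as did Sox5 (-0.196) and Sox6 (-0.016) without P14 replicate 1, Sox8 from P14 to P28 without P28 replicate 3 (-0.088) and Sox2 between P1 and P28 without P28 replicate 1 (0.029). At the other end of the leave-outs these changes reached 0.497 for Sox2, 0.378 for Sox5 and 0.211 for Sox6 from P7 to P14, 0.278 for Sox8 from P14 to P28 and -0.387 for Sox2 between P1 and P28. Genes called in the whole table numbered 2232 from P14 to P28 and 766 in the fit of these time points alone, and 1191 against 2820 from P1 to P7.

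The number of Sox genes called from P14 to P28 was 6, and 2 in the fit of these time points alone, and the cause was not tested. With each library left out, the counts ranged from 4 to 6 from P1 to P7, 5 to 5 from P7 to P14, 3 to 8 from P14 to P28, 4 to 6 between P1 and P28 and 9 to 10 over the 4 time points, while the share of all genes called ranged from 4.21% to 9.96%, 14.04% to 25.5%, 8.03% to 18.2%, 25.1% to 37.3% and 36.2% to 47.8% in the same order. The replicate number as a block left these counts at 5, 5, 6, 6 and 10. Same-numbered libraries of different time points had correlations of their deviations from -0.029 to 0.139 (median 0.031), with 1 of 18 over 0.1. Pairs with other numbers had -0.105 to 0.0536 (median -0.011), with 0 of 36 over 0.1. These low values cannot settle whether the numbers pair the libraries. In the paired form of the ratio test, permuted within replicate numbers, Sox6 to Sox5 had p 0.0799, and the ratios other than this one and that of Sox3, which is a description only, passed. A count of 0 allows up to 3 reads, or 1.85 to 4.38 normalized counts by library, and Sox3 at P14 and P28 is at this limit.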
